A study of Mus musculus with 8 samples.

Results

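Heat shock, DnaJ and chaperonin genes were measured in 4 libraries of tumour NK cells (tuNK in the titles) and set against 4 libraries of spleen NK cells (spNK in the titles). The genes were chosen by name alone: HSP70 (Hspa), small HSP (Hspb), HSP60 and HSP10 (Hspd1, Hspe1), HSP110 (Hsph1), HSP90, DnaJ class A, B and C genes, the CCT subunits with Tcp1, and the transcription factor gene Hsf1. Of 94 matching names in a table of 45706 genes, 11 were pseudogene copies (2 ending in -ps and 9 with a number after it) and were left out, which gave 83 genes. Of these, 70 passed the filter on low counts, and the other 13 did not.

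NK cells, lymphocytes that kill targets lacking MHC class I, were sorted for both groups from BALB/c mice bearing CT26_b2m-/- tumours under the skin. CT26 is a mouse colorectal carcinoma line, and deletion of its β2-microglobulin gene keeps MHC class I off the cell surface. Tumour and spleen were both digested with enzymes at 37 °C for 60 minutes before the cells were sorted. No age, treatment or sorting marker is given, and the labels do not say whether libraries came from separate mice or from pooled animals, so each p-value reflects sample-to-sample spread alone, which may be technical. In all 8 samples the title is contradicted by the tissue tag and the source name, which swap tumour and spleen. The grouping of the samples is the same either way, and directions here follow the titles.

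Heat shock proteins bind unfolded stretches of other proteins and help them fold, refold or be degraded. HSP70 works in cycles of ATP hydrolysis that DnaJ proteins start, HSP90 acts later on kinases and receptors, and the ring-shaped chaperonins enclose whole proteins, actin and tubulin among the clients of CCT. Some of these genes are transcribed at all times, whereas others are switched on by the factor HSF1 when proteins unfold, for instance during heat, and the endoplasmic reticulum has its own set that answers to the unfolded protein response. Activated lymphocytes raise their chaperones together with protein synthesis, and many carcinoma cells keep them high.

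Total estimated counts per library ran from 38745733 to 53886933. The chaperone genes took 1.64 to 1.82% of all counts in tuNK and 0.894 to 1.25% in spNK. Their summed TPM (a level scaled for transcript length and depth) was 10644, 9222, 9194 and 8931 in tuNK 1 to 4 and 5651, 5306, 6532 and 7498 in spNK 1 to 4, so for this total every tuNK library lay above every spNK library. The summed TPM of the 9 stress-inducible genes alone overlapped, at 779, 613, 506 and 592 in tuNK and 421, 336, 541 and 689 in spNK. The 15 markers of fibroblasts and mesenchymal tumour cells were all called higher in tuNK and summed to 3314 to 5017 TMM-scaled counts per 1000000 (CPM) in tuNK and 96.7 to 161 CPM in spNK. Most of the spNK sum was Thy1, at 74.1 to 122 CPM in spNK and 152 to 250 CPM in tuNK. Col1a2, for instance, averaged 1861 CPM in tuNK and 1.42 CPM in spNK. Of 10 epithelial markers, 6 were tested and 4 called higher, while Epcam and Cdh1 were not called. The 10 summed to 47.8 to 69.3 CPM in tuNK and 1.22 to 10.2 CPM in spNK. Krt18 was the largest part of the tuNK sum, with a mean of 31.2 CPM, and Cldn3 was at 0 in every library. All 11 NK markers were called lower (3434 to 4845 CPM in tuNK, 10720 to 15350 CPM in spNK), as were 28 of 29 genes expressed across leukocytes (4708 to 6198 CPM in tuNK, 15458 to 19636 CPM in spNK). Markers of other blood cells summed to less in tuNK than in spNK, although the macrophage and monocyte list went both ways, with 2 of 12 called higher and 4 lower. Cd14, a receptor for lipopolysaccharide, was at 60.4 ± 6.80 CPM in tuNK and 0.280 ± 0.187 CPM in spNK, and Mrc1, the mannose receptor, at 3.67 ± 0.459 CPM in tuNK and 0.400 ± 0.507 CPM in spNK (SD, n = 4 each). The 4 called lower were Lyz2, Csf1r, Ly6c2 and Ccr2. Their means were 2.16, 0.0836, 60.8 and 314 CPM in tuNK and 96.4, 2.83, 274 and 563 CPM in spNK. Ccr2 and Ly6c2 held most of the sum of this list in every library. The sum of this list, mostly these genes, ranged from 389 to 542 CPM in tuNK and from 865 to 1051 CPM in spNK. From what cells they came was not tested. For T cells the ranges were 14.1 to 24.5 CPM in tuNK and 52.1 to 63.2 CPM in spNK. For B cells they were 0.842 to 2.04 CPM in tuNK and 18.5 to 40.9 CPM in spNK, with Cr2, Fcer2a and Ms4a1 among those at 0 in tuNK. They were 0.362 to 2.04 CPM in tuNK and 181 to 820 CPM in spNK for erythroid cells, 5.36 to 7.50 CPM in tuNK and 318 to 579 CPM in spNK for platelets, and 0.0699 to 0.661 CPM in tuNK and 36.5 to 145 CPM in spNK for neutrophils. The part that RNA of other cell types plays in the chaperone results was not tested, and in bulk libraries fewer cells of a type and less RNA per cell cannot be told apart. Scaling each library to the 29 leukocyte genes shifted the median over all genes up by 1.68 on the log2 scale. Values under that scaling are called leukocyte-scaled and are to be read against that shift. It moves genes nearly alike, so a place above or below the median of all genes after it is not separate support.

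Across the family, 37 of the 70 tested genes were called higher in tuNK and 15 lower by the edgeR quasi-likelihood test at an adjusted p under 0.05, and 18 were not called. Of all 14006 genes tested, 69.6% were called, 35.6% higher and 34.0% lower, against 52.9% higher and 21.4% lower of the 70. The median log2 fold change was 0.48 over the 70 genes and 0.02 over all genes. The 4 tuNK values lay above the 4 spNK values for 35 genes and below them for 15, which is the case for 34.4% and 32.7% of all genes. Called changes of at least 2-fold numbered 16 higher and 8 lower, against 21.9% and 19.3% of all genes. After leukocyte scaling, 62 of the 70 were called higher and 2 lower, against 78.1% and 6.48% of all genes, and 45 of the 70 lay above the median of all genes. Without spNK 3 and tuNK 1, left out after the marker levels had been seen, 35 were called higher and 17 lower. Among those higher were 4 of the inducible genes, 8 of the CCT subunits, 6 of the mitochondrial and 5 of the endoplasmic reticulum genes.

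**Figure D1:**
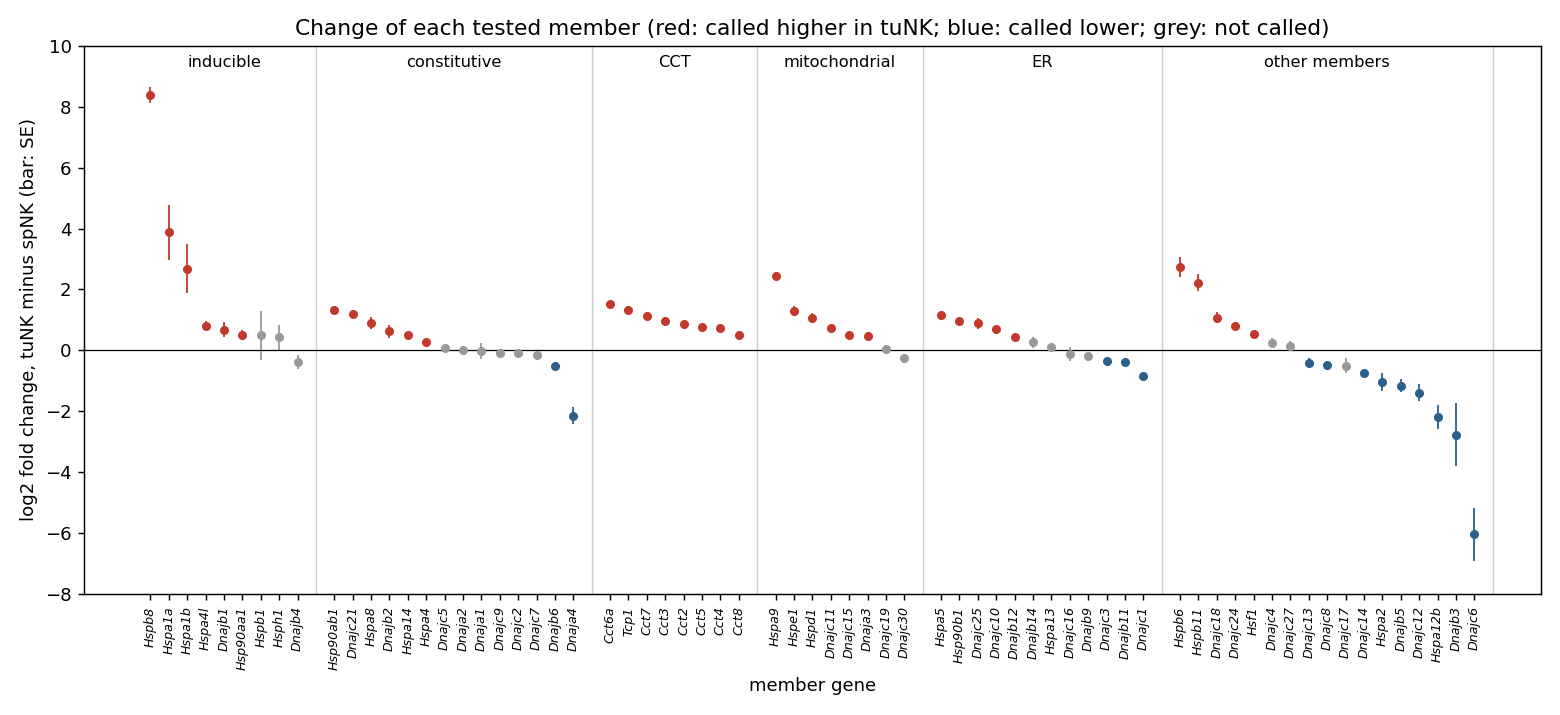
Log2 fold change (tuNK minus spNK, with its SE) of the tested members, in the order of their roles. Genes with 0 counts in every library of a group (Dnajc22 and Dnajc28) are not drawn. All 8 CCT subunits sit above 0, whereas the DnaJ genes among the constitutive, endoplasmic reticulum and other members lie on both sides.

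The stress-inducible genes were mixed in size and in spread. Of 9 listed genes, 6 were called higher in tuNK (66.7%, against 35.6% of all genes) and 3 were not called. The median log2 fold change of the 9 was 0.68. The inducible HSP70 pair and the small heat shock gene Hspb8 stood furthest apart between the groups, whereas Hsp90aa1, Dnajb1 and Hspa4l differed by less than 2-fold. After leukocyte scaling all 9 were called higher, as were 78.1% of all genes, and 8 of 9 lay above the median of all genes.

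Hspa1a (ENSMUSG00000091971, chromosome 17, 34969190 to 34972156 on GRCm38) and Hspa1b (ENSMUSG00000090877, chromosome 17, 34956436 to 34959238) encode the heat-inducible HSP70 and lie close together in the MHC region. Hspa1a stood at 13.3, 23.3, 32.0 and 38.6 CPM in tuNK 1 to 4, against 0, 0.905, 2.47 and 3.94 CPM in spNK 1 to 4. Hspa1b stood at 35.5, 58.3, 55.5 and 81.5 CPM in tuNK, against 1.12, 2.40, 13.9 and 18.7 CPM in spNK. Neither gene overlapped between the groups, and spNK 3 and spNK 4 were well above spNK 1 and spNK 2. Hspa1a rose by 3.87 ± 0.91 on the log2 scale (edgeR adjusted p = 0.00491) and Hspa1b by 2.68 ± 0.81 (adjusted p = 0.0180). Without spNK 4 the changes were 4.55 and 3.31, and without a filter on low counts the adjusted p of Hspa1b was 0.0506. The transcripts share 63.8% of the 31-base words of Hspa1a and 67.6% of those of Hspa1b, so reads could be divided between them in more than one way. Their sum, which does not depend on that division, averaged 84.5 ± 29.2 CPM in tuNK and 10.8 ± 10.3 CPM in spNK (SD, n = 4 each), a ratio of 7.79.

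The upstream sequences of this pair are shown because heat shock elements, the sites that HSF1 binds, are built from inverted repeats of GAA. Both windows are on the minus strand, Hspa1a at chr17:34972157-34972406 and Hspa1b at chr17:34959239-34959488 (RefSeq, GRCm38.p6), and hold the 250 bases before the annotated start, read 5′ to 3′. Capitals mark the only match in each to the motif of 2 inverted units, GAANNTTC or TTCNNGAA.
Hspa1a: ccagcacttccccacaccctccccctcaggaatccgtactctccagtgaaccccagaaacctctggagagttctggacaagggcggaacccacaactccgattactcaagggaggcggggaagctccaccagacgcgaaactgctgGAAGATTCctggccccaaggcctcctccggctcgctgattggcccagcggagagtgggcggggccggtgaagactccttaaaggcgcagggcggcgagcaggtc
Hspa1b: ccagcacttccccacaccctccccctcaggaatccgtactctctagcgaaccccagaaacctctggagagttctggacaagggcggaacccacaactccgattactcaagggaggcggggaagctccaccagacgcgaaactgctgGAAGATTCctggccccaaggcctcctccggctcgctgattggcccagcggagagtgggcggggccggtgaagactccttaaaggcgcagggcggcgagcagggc
The windows are identical at 247 of 250 positions, and the match begins 104 bases before the start in both. That motif, which reads the same on both strands, was found in 17.0% of 27025 genes with a RefSeq promoter window and in 20 of the 67 chaperone genes with a window (29.9%), among them 6 of 8 inducible genes. The windows searched run past the start, and a gene counted if any of its windows held a match. The matches of Hspb8 and Cct6a lay after the start, at positions 3 and 25. A match is a string of letters and not a tested binding site.

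Hspb8 (ENSMUSG00000041548, chromosome 5, 116408491 to 116422864) encodes a small heat shock protein that works with the co-chaperone BAG3 in selective autophagy. It was at 69.7, 74.2, 66.6 and 75.7 CPM in tuNK, against 0.140, 0.213, 0.388 and 0.0906 CPM in spNK. The tuNK libraries were close to each other and all far above spNK. The rise was 8.38 ± 0.26 on the log2 scale (edgeR adjusted p = 3.55e-09), 333-fold, with a leukocyte-scaled change of 10.04. It was higher in the same group as the mesenchymal markers, whose sums in tuNK 1 to 4 were 5017, 3359, 3314 and 3718 CPM. Hspb8 was highest in tuNK 4 and those sums in tuNK 1. The part of mesenchymal cells in Hspb8 was not tested. Hspb1, the small heat shock gene that is strongly induced by heat in many tissues, did not show the rise of Hspb8. It stayed under 1 CPM in all 8 libraries, at 0.155 to 0.945 CPM in tuNK and 0.0888 to 0.582 CPM in spNK (log2 fold change 0.49 ± 0.81, adjusted p = 0.611).

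The inducible HSP90 gene Hsp90aa1 (ENSMUSG00000021270, chromosome 12, 110690605 to 110702728) was at 784, 716, 684 and 720 CPM in tuNK and 454, 360, 579 and 674 CPM in spNK. The lowest tuNK library was only just above spNK 4. The rise of 0.49 ± 0.17 (edgeR adjusted p = 0.0229) lost its call without spNK 1 (adjusted p = 0.0670), without tuNK 1 (adjusted p = 0.0627), with library size alone and on log2 TPM. Dnajb1, the DnaJ partner of HSP70 in the heat shock response, was at 285, 195, 130 and 208 CPM in tuNK and 104, 110, 116 and 182 CPM in spNK, and the groups overlapped. It was called higher by 0.68 ± 0.25 (edgeR adjusted p = 0.0374), but was not called in 6 of the 8 fits that left out a single library (adjusted p of 0.0642 to 0.101 in these), with library size alone, with no filter or on log2 TPM. Hspa4l, an HSP110 relative that exchanges nucleotide on HSP70, rose by 0.81 ± 0.15 (edgeR adjusted p = 5.34e-04), with 34.9 to 44.7 CPM in tuNK and 19.3 to 29.3 CPM in spNK.

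The other HSP110 gene, Hsph1, was at 119, 102, 72.4 and 110 CPM in tuNK and 44.4, 42.5, 63.3 and 150 CPM in spNK. In spNK 4 it was above every other library. Its log2 fold change of 0.43 ± 0.41 was not called (edgeR adjusted p = 0.374), and without spNK 4 it was 1.00 (adjusted p = 0.00159). Dnajb4, a cytosolic DnaJ gene induced by heat in human cells, was at 34.0 to 71.5 CPM in tuNK and 48.9 to 83.7 CPM in spNK (log2 fold change -0.39 ± 0.23, adjusted p = 0.152; leukocyte-scaled 1.30). Without tuNK 1 it was called lower (-0.63, adjusted p = 0.0128), and on log2 TPM it was -0.63 with an offset of 1 (adjusted p = 0.0458).

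**Figure D2:**
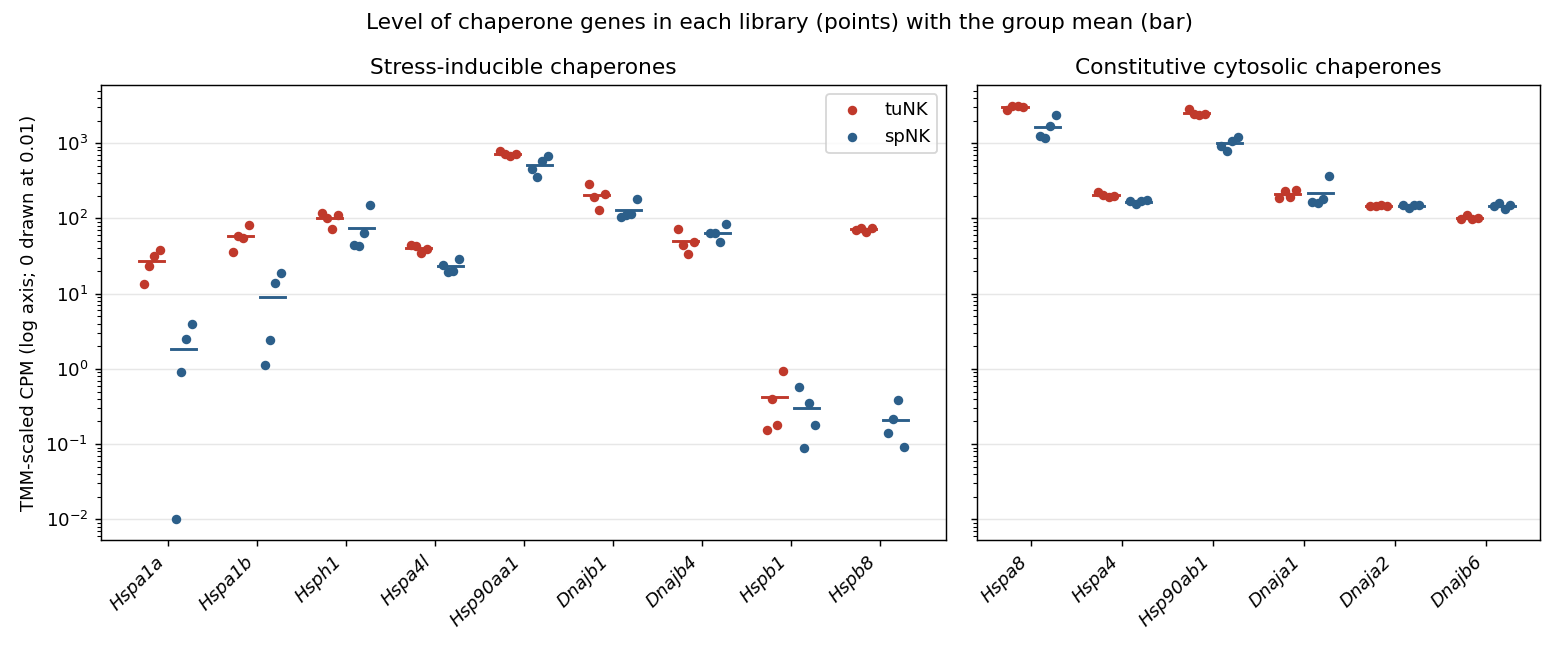
TMM-scaled CPM on a log axis for the 9 stress-inducible genes and for 6 of the 14 constitutive cytosolic genes, 4 tuNK libraries left of 4 spNK libraries for each gene, with the group mean as a bar. Hspb8 lies at 66.6 to 75.7 CPM in tuNK and under 0.4 CPM in spNK, while Dnaja2 lies at nearly the same level in both groups. The library with 0 counts of Hspa1a, spNK 1, is drawn at 0.01.

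Among the 14 constitutive cytosolic genes, 6 were called higher (42.9%), 2 lower (14.3%) and 6 were not called. Of all genes, 35.6% were called higher and 34.0% lower. The median log2 fold change of the 14 was 0.04. The abundant HSP70 and HSP90 genes rose, and the 6 genes not called were all DnaJ genes. Dnajc21, a DnaJ protein of ribosome assembly, was named after its values had been seen and rose by 1.19 ± 0.11 (edgeR adjusted p = 5.04e-06). Hspa8, the HSP70 that every cell makes, had the highest TPM of the family in both groups, 1548 ± 69.7 in tuNK and 971 ± 345 in spNK (SD, n = 4 each). In CPM it was at 2751, 3133, 3159 and 3066 in tuNK and 1264, 1180, 1669 and 2388 in spNK, with spNK 4 nearest to tuNK. It rose by 0.90 ± 0.20 (edgeR adjusted p = 0.00236). Hsp90ab1, the constitutive HSP90, was at 2806, 2436, 2401 and 2412 CPM in tuNK and 915, 782, 1077 and 1210 CPM in spNK. Every tuNK library was above the highest spNK library, and the rise was 1.34 ± 0.13 (edgeR adjusted p = 7.18e-06).

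Hspa4, the constitutive HSP110 gene, rose by 0.29 ± 0.08 (edgeR adjusted p = 0.00614), but its change on log2 TPM was -0.024 with an offset of 1 and was not called. Dnaja1 and Dnaja2, general DnaJ partners of HSP70, were named after their values had been seen and were not called, at -0.03 ± 0.25 (adjusted p = 0.927) and 0.01 ± 0.07 (adjusted p = 0.942). Dnaja1 was at 187 to 241 CPM in tuNK and 162 to 361 CPM in spNK, where spNK 4 was the high library. Without spNK 4, Dnaja1 was called higher, at 0.32 (edgeR adjusted p = 0.0300). Dnaja2 was at 147 to 150 CPM in tuNK and 138 to 153 CPM in spNK. The widest fall in this list was that of Dnaja4, a class A gene, at 4.25 to 7.95 CPM in tuNK and 18.2 to 39.8 CPM in spNK. Its log2 fold change was -2.16 ± 0.28 (edgeR adjusted p = 4.97e-05), and the leukocyte-scaled change of -0.51 was not called. Roles were set by list, and whether Dnaja4 is inducible in these cells was not tested. Its window held matches to the motif of 2 inverted units 90 and 52 bases before the start. Listed as inducible, it would be a called fall in a list that has 0. Dnajb6, which holds back aggregation of polyglutamine proteins, was at 97.9, 110, 98.3 and 102 CPM in tuNK, against 146, 160, 135 and 150 CPM in spNK. The groups did not overlap, and it fell by 0.53 ± 0.08 on the log2 scale (edgeR adjusted p = 1.52e-04). Its leukocyte-scaled change of 1.14 was under the shift of 1.68 in the median of all genes.

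Ratios of gene pairs within a library do not depend on how libraries are scaled, and 6 such ratios were compared by permuting library labels over all 70 assignments (exact, two-sided). The smallest p this test allows is 0.0286, which is reached whenever the groups do not overlap. These p-values were adjusted over the 6 ratios, so the adjusted p of a pair also depends on how many of the other pairs are apart. Among single genes, 67.1% of all tested had no overlap in CPM, and the share among other gene pairs was not examined. The 6 ratios were chosen with earlier results of these data known. The TPM ratio of Hspa1a plus Hspa1b to Hspa8 had a log2 value of -6.37, -5.80, -5.71 and -5.21 in tuNK and -10.62, -8.97, -7.18 and -7.24 in spNK. The inducible HSP70 was thus a larger fraction of the constitutive one in every tuNK library, by 2.73 on the log2 scale (adjusted exact p = 0.0429), or 2.03 without spNK 1. The TPM ratio of Hsp90aa1 to Hsp90ab1 ran the other way. Its log2 value was -1.59, -1.45, -1.53 and -1.48 in tuNK and -0.64, -0.84, -0.37 and -0.48 in spNK, a difference of -0.93 (adjusted exact p = 0.0429). The inducible HSP90 gene therefore rose less than the constitutive one.

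The TPM ratio of Dnajb1 to Dnajb6 was higher in tuNK, with a log2 value of 0.16 to 1.25 in tuNK and -0.83 to 0.01 in spNK, a difference of 1.23 (adjusted exact p = 0.0429). For Hsph1 over Hspa4 the log2 value was -1.17 to -0.41 in tuNK and -1.69 to 0.07 in spNK, and the difference of 0.39 was within the spread (adjusted exact p = 0.371). The groups overlapped through spNK 4 alone, and without it the difference was 0.79. For Hspa5 over Hspa8 it was -1.61 to -1.11 in tuNK and -1.99 to -1.38 in spNK, with a difference of 0.21 (adjusted exact p = 0.371). With CPM in place of TPM the 3 ratios named first kept their direction (2.77, -0.82 and 1.19), with an adjusted exact p of 0.0571.

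**Figure D3:**
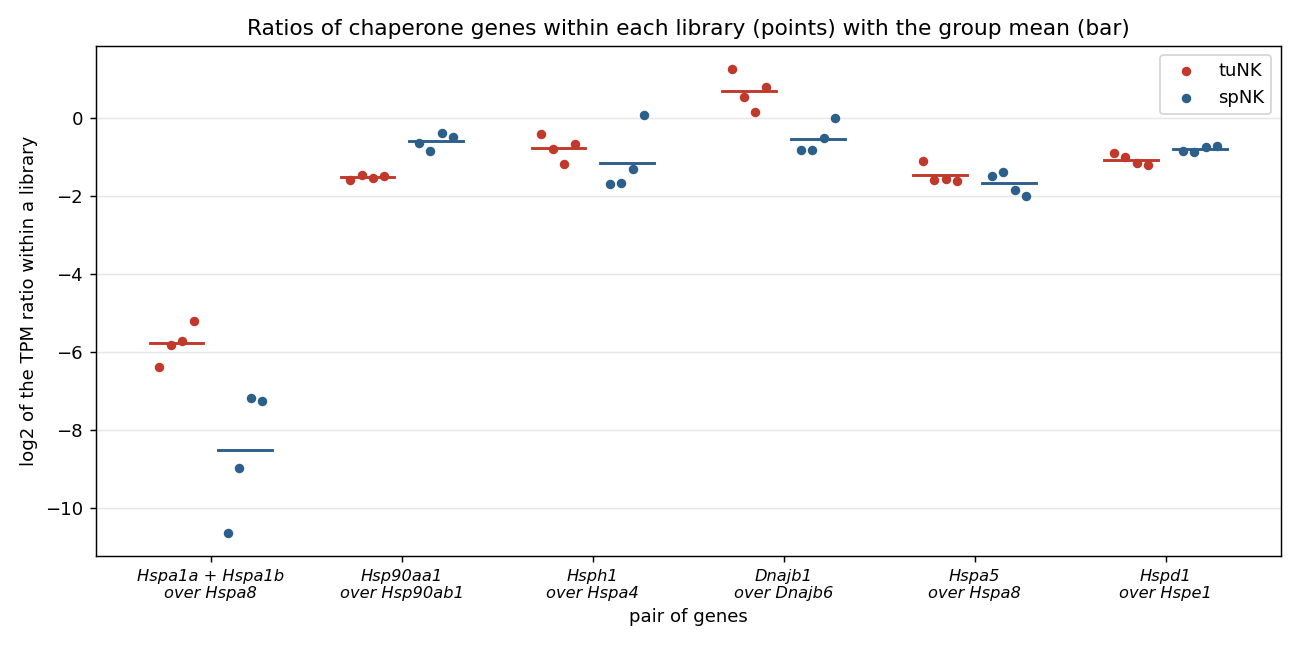
Log2 of the TPM ratio of 6 gene pairs within each library, 4 tuNK libraries left of 4 spNK libraries, with the group mean as a bar. The groups are apart for the inducible HSP70 pair (tuNK above), for the HSP90 pair (tuNK below), for Dnajb1 over Dnajb6 (tuNK above) and for Hspd1 over Hspe1 (tuNK below).

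The libraries of a group were not alike in these genes. Among the 4 spNK libraries, spNK 4 held the highest CPM of 7 of the 9 inducible genes and of 8 of the 14 constitutive genes, but of none of the 8 CCT subunits. For all 70 tested genes the count was 23 (32.9%), against 23.3% of all genes tested. The summed immediate early genes, which tissue digestion can induce, were at 1383 CPM in this library and 1041 to 1384 CPM in the other spNK libraries. By gene, spNK 4 held the highest spNK value of 8 of the 15, Fos and Dusp1 among them (53.3%, against 23.3% of all genes). It held the most platelet markers of its group, 579 CPM. In tuNK those immediate early genes summed to 8019, 5055, 2423 and 3496 CPM, and 12 of the 15 were called higher (80.0%, against 35.6% of all genes). Fos, a subunit of AP-1, was at 302 ± 93.3 CPM in tuNK and 4.60 ± 0.299 CPM in spNK (SD, n = 4 each; edgeR adjusted p = 4.01e-08). Dusp1, a phosphatase of MAP kinases, rose by 5.09 ± 0.36 (edgeR adjusted p = 2.64e-06). Of the tuNK libraries, tuNK 1 had the highest immediate early sum and the most Dnajb1 but the least Hspa1a and Hspa1b, while Fos itself was highest in tuNK 2 (389 CPM, against 357 CPM in tuNK 1). The part of these genes in the chaperone results was not tested.

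**Figure D4:**
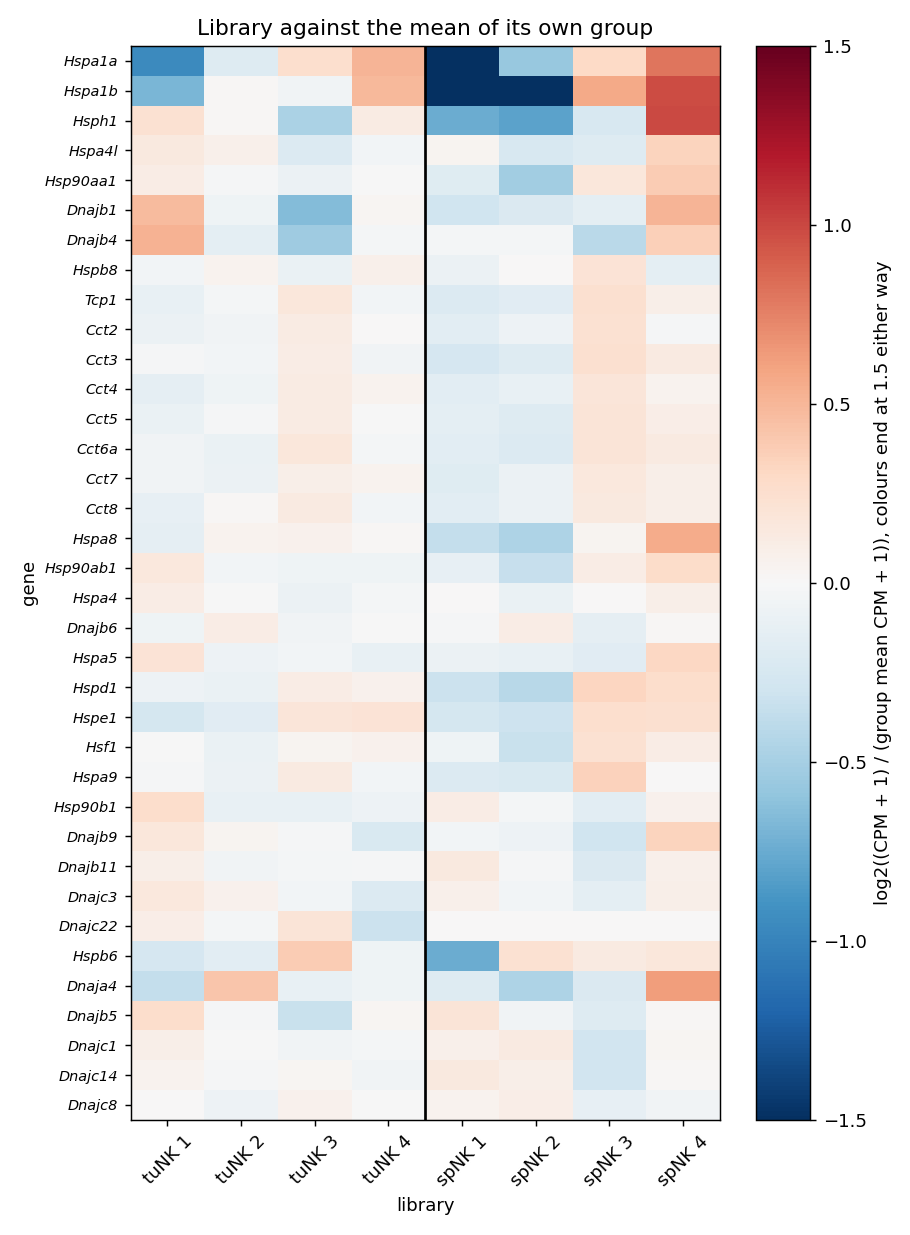
Each library against the mean of its own group, as log2((CPM + 1) / (group mean CPM + 1)), for the 36 named members that averaged 10 CPM or more in a group. Red is above and blue below the group mean. In spNK 4 Hspa1a, Hspa1b, Hsph1, Hspa8 and Dnaja4 are the reddest, and Hspd1, Hspe1 and 7 of the 8 CCT subunits are red too. In spNK 3 Hspa1a, Hspa1b, Hspd1, Hspe1, Hspa9 and all 8 CCT subunits are red.

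All 8 subunits of CCT were called higher in tuNK, with no overlap between groups and a median log2 fold change of 0.91. Of all genes, 35.6% were called higher, and 34.4% had every tuNK value above every spNK value. CCT, also called TRiC, is a double ring with a single copy of each subunit in every ring. Cct6a and Tcp1 rose the most and Cct8 the least. Tcp1 (ENSMUSG00000068039, chromosome 17, 12915701 to 12925067) was at 740, 781, 898 and 775 CPM in tuNK and 278, 286, 379 and 343 CPM in spNK, a rise of 1.31 ± 0.12 (edgeR adjusted p = 2.79e-06). Cct6a (ENSMUSG00000029447, chromosome 5, 129786998 to 129846371) was at 571, 554, 664 and 578 CPM in tuNK and 185, 178, 235 and 226 CPM in spNK, a rise of 1.52 ± 0.11 (edgeR adjusted p = 7.47e-07). Cct7 rose by 1.12, Cct3 by 0.97, Cct2 by 0.85, Cct5 by 0.76 and Cct4 by 0.75. Cct8 was at 387, 425, 463 and 409 CPM in tuNK and 268, 281, 331 and 318 CPM in spNK, a rise of 0.49 ± 0.09 (edgeR adjusted p = 8.06e-04). All 8 lay above the median of all genes after leukocyte scaling, as they did before it. All 8 stayed called with any library left out. Cct6a, Cct7, Cct8 and Tcp1 overlap protein-coding genes on the opposite strand, and the strand setting of the counting is not given in the sources used here.

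Within a library the subunits were close to each other in TPM. The highest was 1.53 to 1.77 times the lowest in tuNK and 1.46 to 1.63 times in spNK. In tuNK Tcp1 was the highest and Cct8 the lowest in all 4 libraries. In spNK the lowest was Cct6a in 3 libraries and Cct7 in the other, and the highest was Cct5 or Cct2. The remaining members of the name class, Cct6b and Cct8l1, did not pass the filter, with at most 30 counts of Cct6b in a library and 0 counts of Cct8l1.

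**Figure D5:**
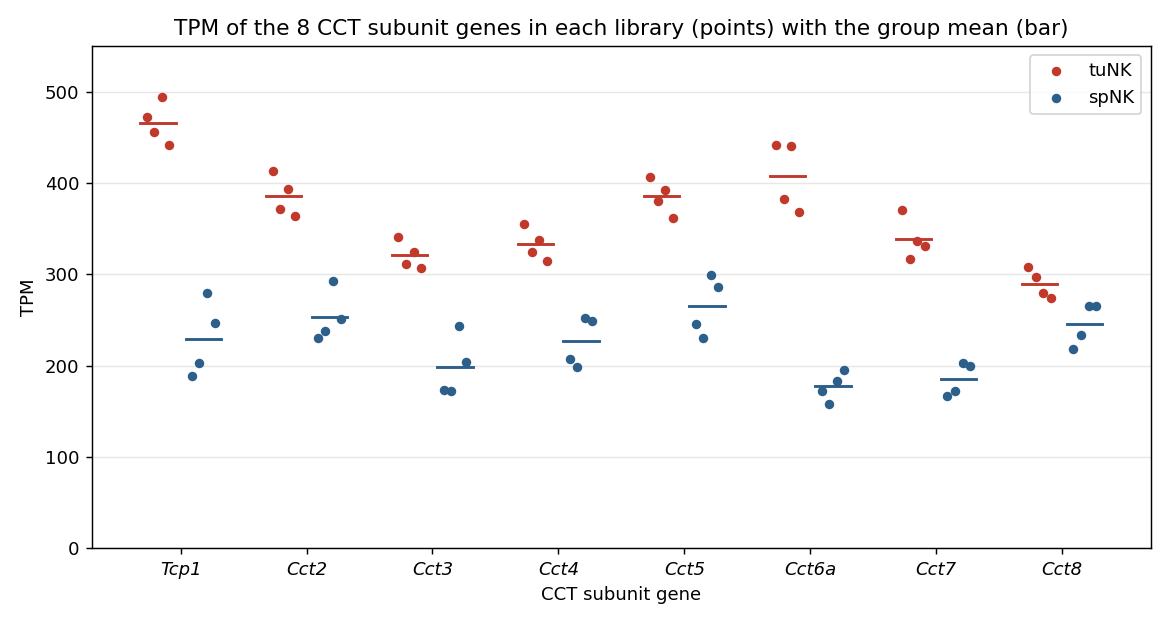
TPM of the 8 CCT subunit genes in each library, 4 tuNK libraries left of 4 spNK libraries, with the group mean as a bar. Each tuNK library is above each spNK library for all 8 genes, with the narrowest gap for Cct8 and the widest for Cct6a and Tcp1.

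Of the 9 mitochondrial chaperones, 6 were called higher (66.7%), 1 lower (11.1%) and 2 were not called. Of all genes, 35.6% were called higher and 34.0% lower. The median log2 fold change of the 9 was 0.50. Hspa9 (ENSMUSG00000024359), the HSP70 that pulls proteins into the mitochondrial matrix, was at 835, 794, 929 and 817 CPM in tuNK and 135, 133, 197 and 156 CPM in spNK. The groups were far apart, and the rise of 2.44 ± 0.13 (edgeR adjusted p = 9.53e-08) was 5.43-fold. Hspd1 and Hspe1 encode the HSP60 ring and its HSP10 lid. Hspd1 was at 586, 576, 667 and 648 CPM in tuNK and 236, 222, 371 and 355 CPM in spNK, a rise of 1.06 ± 0.17 (edgeR adjusted p = 2.19e-04). Hspe1 was at 284, 303, 388 and 394 CPM in tuNK and 117, 113, 167 and 165 CPM in spNK, a rise of 1.28 ± 0.17 (edgeR adjusted p = 5.33e-05). Both genes were lower in spNK 1 and spNK 2 than in spNK 3 and spNK 4. The log2 TPM ratio of Hspd1 to Hspe1 was -0.90, -1.001, -1.16 and -1.21 in tuNK and -0.84, -0.87, -0.74 and -0.73 in spNK, a difference of -0.27 (adjusted exact p = 0.0429). With CPM it was -0.19 (adjusted exact p = 0.129). Of the pseudogene copies, Hspd1-ps3 had 115 to 132 counts in tuNK and 75.5 to 91.8 in spNK, and those of Hspe1 had at most 5 in a library.

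Hspd1 and Hspe1 lie head to head on chromosome 1. The upstream window of Hspe1 is shown because a window of Hspd1 covers it and because it holds the longest heat shock motif found. The Hspe1 window (chr1:55087898-55088147, plus strand, RefSeq, GRCm38.p6) gives the 250 bases before its start. Capitals mark a run of overlapping matches to a motif of 3 units, which is the motif of 2 units extended by 1 more inverted unit after 2 bases of any kind. The Dnajb6 window (chr5:29735648-29735897, plus strand) is set beside it because it holds the same motif in a gene that fell.
Hspe1: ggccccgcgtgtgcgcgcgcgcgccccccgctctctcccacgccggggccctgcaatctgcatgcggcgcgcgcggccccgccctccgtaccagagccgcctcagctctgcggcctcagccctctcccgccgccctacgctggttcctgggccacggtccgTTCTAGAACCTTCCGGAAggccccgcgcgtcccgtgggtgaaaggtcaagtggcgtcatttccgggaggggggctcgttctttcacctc
Dnajb6: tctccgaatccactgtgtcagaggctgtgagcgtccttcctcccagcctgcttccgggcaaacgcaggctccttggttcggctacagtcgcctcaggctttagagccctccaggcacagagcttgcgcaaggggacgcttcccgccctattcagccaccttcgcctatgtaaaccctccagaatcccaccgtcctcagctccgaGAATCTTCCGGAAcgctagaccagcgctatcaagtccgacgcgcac
The full window of Hspe1 shares 285 bases with that window of Hspd1, but only 4 bases with the other Hspd1 window. The motif of 3 units was found on either strand in Dnajb6, Hspd1, Hspe1 and Hsph1, 4 of 67 chaperone genes (5.97%), and in 179 of 27025 genes (0.662%). In Hsph1 it lay after the start, at position 16 or 37 depending on the window. Genes with the motif thus rose (Hspd1, Hspe1), fell (Dnajb6) or were not called (Hsph1).

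Among the smaller mitochondrial genes, Dnajc11, which takes part in cristae organisation, rose by 0.74 ± 0.09 (edgeR adjusted p = 3.03e-05). Dnajc28 had 0 counts in all tuNK libraries and 1.32 ± 0.295 CPM in spNK (SD, n = 4), so it was at least 17.5-fold lower in tuNK against a floor of 3 counts per library. It and Dnajc11 were named after their values had been seen.

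Endoplasmic reticulum chaperones went in both directions. Of 12 genes, 5 were called higher (41.7%), 3 lower (25.0%) and 4 were not called. Of all genes, 35.6% were called higher and 34.0% lower, and the 66.7% called here is near the 69.6% of all genes. The median log2 fold change of the 12 was 0.18. Hspa5 (ENSMUSG00000026864, chromosome 2, 34771970 to 34777547) encodes BiP, the HSP70 of this compartment, and was at 1305, 1074, 1094 and 1041 CPM in tuNK and 474, 469, 450 and 628 CPM in spNK. It rose by 1.16 ± 0.12 (edgeR adjusted p = 1.16e-05). Hsp90b1, the HSP90 of the compartment (GRP94), which folds integrins and Toll-like receptors, was at 972, 751, 753 and 765 CPM in tuNK and 451, 410, 374 and 436 CPM in spNK, a rise of 0.96 ± 0.11 (edgeR adjusted p = 1.71e-05). For both genes tuNK 1 was the highest library.

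The DnaJ genes of the compartment were divided. Dnajc10, a disulfide reductase that works with BiP, was named after its values had been seen and rose by 0.69 ± 0.09 (edgeR adjusted p = 6.41e-05). Dnajb11, a co-chaperone of BiP, was at 109 to 120 CPM in tuNK and 126 to 162 CPM in spNK, and fell by 0.38 ± 0.09 (edgeR adjusted p = 0.00334; leukocyte-scaled 1.31). Dnajc3, which also restrains the stress kinase PERK, fell by 0.35 ± 0.10 (edgeR adjusted p = 0.00862; leukocyte-scaled 1.34), with 68.5 to 88.6 CPM in tuNK and 91.1 to 107 CPM in spNK. Dnajb9, which represses the sensor IRE1 through BiP, was not called at -0.19 ± 0.14 (adjusted p = 0.243; leukocyte-scaled 1.496). Dnajc1, a membrane-bound partner of BiP, fell by 0.84 ± 0.11 (edgeR adjusted p = 4.35e-05; leukocyte-scaled 0.85).

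The endoplasmic reticulum stress element pairs a CCAAT box with CCACG and is bound in the unfolded protein response. It was searched on both strands as CCAAT and CCACG with 9 bases of any kind between them, in the same windows that run past the start. It was found in Hspa5, Hsp90b1 and Dnajc3, 3 of the 67 chaperone genes (4.48%), and in 37 of 27025 genes (0.137%). The windows of both genes that rose are shown with the matches in capitals, Hspa5 from the plus strand (chr2:34771840-34772089) and Hsp90b1 from the minus strand (chr10:86705445-86705694), 250 bases each before the start (RefSeq, GRCm38.p6).
Hspa5: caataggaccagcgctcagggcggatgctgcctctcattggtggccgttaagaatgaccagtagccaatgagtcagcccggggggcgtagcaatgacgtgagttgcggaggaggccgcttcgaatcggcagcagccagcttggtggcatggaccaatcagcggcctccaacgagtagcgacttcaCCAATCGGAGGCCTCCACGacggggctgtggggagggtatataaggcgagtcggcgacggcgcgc
Hsp90b1: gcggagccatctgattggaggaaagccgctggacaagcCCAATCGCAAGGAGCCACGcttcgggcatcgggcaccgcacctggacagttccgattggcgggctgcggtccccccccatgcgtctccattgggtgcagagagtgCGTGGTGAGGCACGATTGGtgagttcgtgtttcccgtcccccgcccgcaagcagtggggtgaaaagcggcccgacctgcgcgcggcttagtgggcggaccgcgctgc
Hspa5 has 1 match and Hsp90b1 has 2, of which the second is on the opposite strand. Dnajc3, which carries the same motif, fell.

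The other 31 members belong to none of these role lists, and 18 of them were tested, with 6 called higher, 9 lower and 3 not called. The 33.3% called higher is near the 35.6% of all genes. The share called lower, 9 of 18, is above the 34.0% of all genes. In either direction 83.3% were called, against 69.6% of all genes. Dnajc22 (ENSMUSG00000038009, chromosome 15, 99093170 to 99104737), whose fly homologue Wurst acts in endocytosis of the airway, was at 22.8, 20.8, 24.4 and 16.7 CPM in tuNK and had 0 counts in all 4 spNK libraries. Against a floor of 3 counts per library it was at least 336-fold higher in tuNK. Hspb6, a small heat shock gene of muscle, was at 13.2, 14.1, 20.9 and 15.1 CPM in tuNK and 1.02, 2.96, 2.72 and 2.81 CPM in spNK, a rise of 2.73 ± 0.32 (edgeR adjusted p = 2.28e-05). Hspb11, which despite its name is a subunit of the transport complex of cilia, was named after its values had been seen and rose by 2.22 ± 0.28 (edgeR adjusted p = 4.16e-05). Dnajc22 and Hspb6 were higher in the same group as the mesenchymal and epithelial markers, and the part of those cells in them was not tested.

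Hsf1 (ENSMUSG00000022556, chromosome 15, 76477422 to 76501913), the factor that drives the heat shock response and is regulated mainly at the protein level, was at 32.4, 30.3, 33.4 and 34.1 CPM in tuNK and 21.3, 17.5, 26.4 and 24.3 CPM in spNK. It rose by 0.54 ± 0.13 (edgeR adjusted p = 0.00391), which was not called on log2 TPM (0.31 with an offset of 0.1, adjusted p = 0.0871).

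Among the members that fell, Dnajc14, a membrane protein that flaviviruses depend on, was at 75.6 to 81.3 CPM in tuNK and 108 to 147 CPM in spNK. It fell by 0.76 ± 0.10 (edgeR adjusted p = 5.42e-05; leukocyte-scaled 0.93). Dnajc8, a splicing factor, fell by 0.49 ± 0.08 (edgeR adjusted p = 2.18e-04; leukocyte-scaled 1.20). Dnajb5, a class B cytosolic gene, fell by 1.16 ± 0.20 (edgeR adjusted p = 4.32e-04), with 3.43 to 5.67 CPM in tuNK and 8.84 to 11.9 CPM in spNK (leukocyte-scaled 0.51, not called). Dnajc6, which encodes auxilin and uncoats clathrin vesicles in neurons, was named after its values had been seen. It had 0 to 0.155 CPM in tuNK and 2.05 to 6.51 CPM in spNK, and fell by 6.05 ± 0.87 (edgeR adjusted p = 1.01e-04), with a leukocyte-scaled change of -4.47. Over all 45 DnaJ genes, 40 were tested, with 12 higher, 13 lower and 15 not called. The 30% higher and 32.5% lower of these are near the 35.6% and 34.0% of all genes. Of the 11 tested HSP70 genes 8 were called higher and 2 lower, and all 3 HSP90 genes were called higher. Differences between the families were not tested.

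Of the 13 members that did not pass the filter, 6 had 0 counts in all libraries and the other 7 had at most 30 counts in any library. Those at 0 were Cct8l1, Dnajb7, Dnajb8, Dnajc5b, Dnajc5g and Hspb3. Hspa1l, the HSP70 gene of the testis that lies beside Hspa1a, had at most 1.03 estimated counts.

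Genes that work with the chaperones were taken from 4 further lists with 44 genes, of which 43 were tested, 24 called higher and 5 lower. These are 55.8% higher and 11.6% lower, against 35.6% and 34.0% of all genes. The 67.4% called in either direction is near the 69.6% of all genes. Of 21 co-chaperones of HSP70 and HSP90, 10 were called higher (47.6%) and 4 lower (19.0%). Stub1, the ubiquitin ligase that marks HSP70 clients for degradation, was at 139 ± 8.42 CPM in tuNK and 72.9 ± 6.14 CPM in spNK (SD, n = 4 each; edgeR adjusted p = 3.93e-06). Fkbp5, an HSP90 co-chaperone of the glucocorticoid receptor, rose by 0.98 ± 0.13 (edgeR adjusted p = 6.34e-05). Unc45a, a myosin chaperone, and Bag1, which releases nucleotide from HSP70, fell by 0.54 ± 0.09 and by 0.27 ± 0.08 (edgeR adjusted p = 3.67e-04 and 0.00890). Their leukocyte-scaled changes of 1.13 and 1.40 were under the shift of 1.68 in the median of all genes.

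Of 8 prefoldin and phosducin-like genes, which hand clients to CCT or assist it, 3 were called higher (37.5%, near the 35.6% of all genes) and 1 lower. Pfdn1 rose by 1.41 ± 0.11 (edgeR adjusted p = 9.32e-07) and Pfdn4 by 1.20 ± 0.11 (edgeR adjusted p = 2.97e-06), whereas Pdcl fell by 0.48 ± 0.12 (edgeR adjusted p = 0.00340; leukocyte-scaled 1.21). Of 4 other heat shock factor genes and regulators, 3 were tested, and Hsf2 and Hsf4 were called higher, at 10.02 ± 1.93 CPM and 9.04 ± 0.315 CPM in tuNK and 5.35 ± 0.525 CPM and 5.70 ± 1.01 CPM in spNK (SD, n = 4 each). Of 11 partners in the organelles, 9 were called higher (81.8%, against 35.6% of all genes). Serpinh1, the collagen chaperone HSP47, was at 764 ± 132 CPM in tuNK and 0.636 ± 0.255 CPM in spNK (SD, n = 4 each), beside the collagen and other mesenchymal markers. Clpb, a mitochondrial disaggregase, rose by 1.56 ± 0.11 (edgeR adjusted p = 4.87e-07).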

How the data were processed

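RNA of sorted NK cells was sequenced after selection of polyadenylated RNA with a directional kit, per the labels' protocols, and the 8 samples were grouped by their titles. Per the submitters' processing notes, the tools were FastQC 0.11.9, STAR and Salmon with the GRCm38 build, without a version for STAR or Salmon. The annotation and the strand setting used for counting are not given. The authors made estimated counts per gene with these tools and deposited them unnormalized (7.9 to 8.82% of the values in a library are not whole numbers), and a table of TPM, in which each library sums to 1000000. All 8 columns were matched to samples.

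Estimated counts were rounded, filtered with filterByExpr (14006 genes kept), scaled with TMM and tested with the quasi-likelihood F test of edgeR 4.0.16 (robust settings, Benjamini-Hochberg over all genes tested, threshold 0.05). A positive log2 fold change is higher in tuNK, and its error is a standard error. Levels are TMM-scaled CPM, and TPM was used to compare genes. Depth limits genes near 0, and the floor of 3 counts per library covers counting error only. The fit was tested on simulated data.

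Named were the inducible genes, the CCT subunits, the genes of the 6 ratios, Hsf1, Hspa9, Hspa5, Hsp90b1, Dnajb9, Dnajb11, Dnajc3 and the 6 largest rises and 6 largest falls among called members whose higher group averaged 10 CPM or more and whose groups did not overlap, 37 genes in all, and up to 2 genes per direction of the partner lists. Other members named are given as the rest of their list or were chosen after their values were seen. The members, gene lists, ratios and marker lists were chosen with earlier results of these data known. Alternatives were other scalings (DESeq2 1.42.0 size factors, upper quartile, library size, leukocyte genes), other filters, the DESeq2 test, limma 3.58.1 (voom on counts, trend on log2 TPM), a test against a fold of 1.5, the replicate number as a block and leaving out each library. Gene positions are from GENCODE M21 (GRCm38).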

Additional observations from a re-analysis of the deposited data

Results flagged for a closer look

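A single library stood far from the other 3 of its group in 6 of the 86 groups of values examined, where chance alone gives about 1 in 20. In spNK 4, Dnajb1 was at 182.3 CPM, against 104 to 116 CPM in the other spNK libraries, and Hspa5 was at 627.8 CPM, against 450 to 474 CPM. In tuNK 1, Hsp90ab1 was at 2806 CPM, against 2401 to 2436 CPM in the other tuNK libraries, Hsp90b1 was at 972.2 CPM, against 751 to 765 CPM, and the log2 TPM ratio of Hspa5 to Hspa8 was -1.112, against -1.61 to -1.56. In spNK 1, Hspb6 was at 1.024 CPM, against 2.72 to 2.96 CPM in the other spNK libraries. Without spNK 4, Dnajb1 rose by 0.88 and Hspa5 by 1.27, and without tuNK 1, Hsp90ab1 rose by 1.23 and Hsp90b1 by 0.84.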

How the results depend on the processing

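Of the 37 named genes, all kept direction and call with DESeq2, its size factors, upper quartile scaling and limma-voom. All 8 CCT subunits were called higher in every alternative except the test against a fold of 1.5, where 7 were. Leukocyte scaling, under which 10940 genes were called higher and 907 lower in place of 4983 and 4761 (median shifted by 1.68), called 62 members higher and 2 lower, 13 constitutive and 12 endoplasmic reticulum genes higher with 0 lower in both, and 43 partner genes higher with 0 lower (edgeR, also 0 lower at an unadjusted p under 0.05). It turned Dnajb4 (1.30), Dnajb6 (1.14), Dnajb9 (1.496), Dnajb11 (1.31), Dnajc3 (1.34), Dnajb5 (0.51), Dnajc1 (0.85), Dnajc14 (0.93) and Dnajc8 (1.20) positive. Against a fold of 1.5, 8 members were lower, 3 inducible, 3 constitutive and 3 endoplasmic reticulum genes higher, 1 constitutive and 1 endoplasmic reticulum gene lower, and 12 partner genes higher and 0 lower (edgeR, also 0 at an unadjusted p under 0.05). Library size alone (median moved by -0.17) gave 5 constitutive, 2 mitochondrial and 10 partner genes lower, and upper quartile scaling 2 mitochondrial genes lower. On log2 TPM (median moved by -0.16 or -0.21 with an offset of 1 or 0.1), 1 inducible, 6 constitutive, 2 mitochondrial and 11 partner genes were lower, 3 endoplasmic reticulum genes were higher, 15 partner genes were higher with an offset of 1, and Hspa4 was at -0.024 (offset 1) and -0.025 (offset 0.1). With CPM in place of TPM the ratios gave 2.77, -0.82, 1.19 and -0.19. Without spNK 3 and tuNK 1, chosen after the data were seen, 1 inducible and 3 partner genes were lower. Leaving out single libraries gave 34 to 39 members higher and 13 to 17 lower, 4 to 7 inducible genes higher and 0 to 1 lower, 1 to 2 mitochondrial and 3 to 5 partner genes lower, and Hspb1 between -0.30 (without tuNK 4) and 0.998 (without spNK 1). For the other changes the cause was not tested. With the numbered pseudogene names counted as members, 38 were higher and 15 lower.

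Deviations of same-numbered libraries from their group means correlated at -0.01 to 0.04, and 3 of the 4 libraries in each group correlated best with their own number. The labels do not say whether same-numbered libraries came from the same animal, and correlations this weak cannot decide it. The replicate block gave 37 higher and 15 lower of the 70 members, with 1 inducible gene (Dnajb4, -0.41) and 3 partner genes lower, and the 4 same-numbered differences of a ratio cannot give a p under 0.125.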
